A study of Homo sapiens with 9 samples.

Results

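The MHC class II genes and their transactivator CIITA were followed in RNA-seq of TE13 cells, an established line of esophageal squamous cell carcinoma (ESCC). The members were 9 genes of the 60605 in the table: HLA-DRA, HLA-DRB1, HLA-DPA1, HLA-DPB1, HLA-DQB1, HLA-DMA, HLA-DMB, CD74 and CIITA, each taken as the row of that symbol with the highest mean level. They were chosen by their measured counts and FPKM, since earlier results of these same libraries showed class II genes to be higher after knockdown, so their differences from control are given as a description without a test. The contrast between both knockdown groups played no part in the choice and was tested.

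The cells were transfected with control siRNA or with one of the PARylator siRNAs, siRNA.1 and siRNA.2, giving 3 groups of 3 libraries each. PARylator is the long noncoding RNA LINC00885. The labels describe all 9 libraries as poly(A)+ RNA of the same cell line and give neither the time after transfection nor whether replicates were separate cultures, so p-values measure only the spread between these libraries. Levels are given as read counts per gene and as FPKM, the count per kilobase of exon and per 1e6 counted reads, and only FPKM was used to compare one gene with another.

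MHC class II molecules are pairs of an alpha and a beta chain that carry peptides from the endosomal route to the cell surface, where CD4+ T cells read them. The chains are assembled on CD74, the invariant chain, which fills the groove until it is cleaved and the peptide editor HLA-DM swaps its remnant for another peptide. Transcription depends on CIITA, a coactivator that does not bind DNA itself and is recruited by a complex of RFX, CREB and NF-Y factors sitting on the X and Y boxes of the promoters. Professional antigen-presenting cells make CIITA constitutively, while many epithelial cells make it in response to interferon gamma.

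Because the members share this promoter design, the stretches that hold its letters are shown for the members where a script found them. RefSeq promoter sequences (GRCh38.p14, from 250 bases before the gene start) were present for 7 of the 9 members, without HLA-DRA and CIITA. TGATG, letters found within the X box, was searched on the gene strand, and ATTGG, the NF-Y letters of the Y box, was searched downstream of it on either strand, where it reads CCAAT on the other. Both motifs were chosen after the sequences had been seen, do not overlap each other, and stand in capitals below, with all windows on the minus strand and written 5′ to 3′.

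HLA-DRB1, chr6:32589880-32589936: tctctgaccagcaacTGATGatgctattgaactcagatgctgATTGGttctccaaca

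HLA-DMA, chr6:32953162-32953219: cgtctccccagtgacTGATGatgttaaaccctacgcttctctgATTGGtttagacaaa

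CD74, chr5:150412949-150412997: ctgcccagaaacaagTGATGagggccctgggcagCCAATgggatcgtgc

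HLA-DMB, chr6:32941036-32941125: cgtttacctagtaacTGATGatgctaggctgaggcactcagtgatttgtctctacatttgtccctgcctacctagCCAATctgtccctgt

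The gap between the capitals was 22 bases in HLA-DRB1, 23 in HLA-DMA and 14 in CD74, and it was 55 bases in HLA-DMB. Only exact letters were searched, so a box with other letters would be missed. The HLA-DMB window also holds atttg, near to ATTGG in its letters, closer to its TGATG. These gaps therefore need not be the spacing of the boxes. TGATG followed by ATTGG within 40 bases was present in 3 of the 7 members with a sequence and in 1.3% of the 35116 promoters of the table, of which 28.8% held TGATG and 32% held ATTGG on either strand. HLA-DPA1 held neither motif in either of its listed promoters, and HLA-DPB1 and HLA-DQB1 held both motifs without a pair at this spacing. A match is a run of letters and not a measured binding site.

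The targeted gene came first as a check of the labels. LINC00885 (ENSG00000224652, chr3:196142525-196160893, plus strand) was counted 6, 7 and 12 times in control, 4, 5 and 2 times with siRNA.1, and 2, 0 and 4 times with siRNA.2. Every knockdown library was below every control library. Relative to library size the summed counts came to 0.417 times control with siRNA.1 (95% interval 0.185 to 0.878) and 0.189 times with siRNA.2 (0.0634 to 0.472). All intervals of summed counts given here are exact binomial ones and cover counting error only.

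Libraries held between 15337917 and 22559998 counts on genes, and those of siRNA.2 were the deepest. Within each group every pair of libraries differed beyond counting noise (chi-square over its degrees of freedom 2.76 to 4.62), and each was counted as 1 sample. All 9 listed markers of squamous epithelium were measured, among them keratin genes and TP63, and their summed level was between 950 and 970 FPKM in control, 752 and 783 FPKM with siRNA.1, and 744 and 762 FPKM with siRNA.2. The markers went both ways, since EPCAM, DSG3 and KRT6A rose and KRT5, SFN, KRT17, CDH1 and TP63 fell with each siRNA. SFN went from a mean of 305 FPKM to 180.0 and 182, and KRT5, at 142 FPKM in control, fell by 1.86 and 1.36 on the log2 scale.

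The class II genes were near silent in control cells. HLA-DRA, HLA-DPA1, HLA-DPB1, HLA-DMA and CD74 had every knockdown library above every control library, HLA-DMB did so with siRNA.2 alone, HLA-DRB1 had few counts and HLA-DQB1 had none. The summed level of the 9 members was between 0.90 and 0.97 FPKM in the control libraries, between 6.35 and 7.05 FPKM with siRNA.1, and between 5.17 and 6.34 FPKM with siRNA.2. HLA-DRA made up most of this difference, followed by CD74. The CIITA libraries of control and knockdown cells overlapped. In bulk RNA, more cells that express a gene and more RNA in each cell cannot be told apart.

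**Figure D1:**
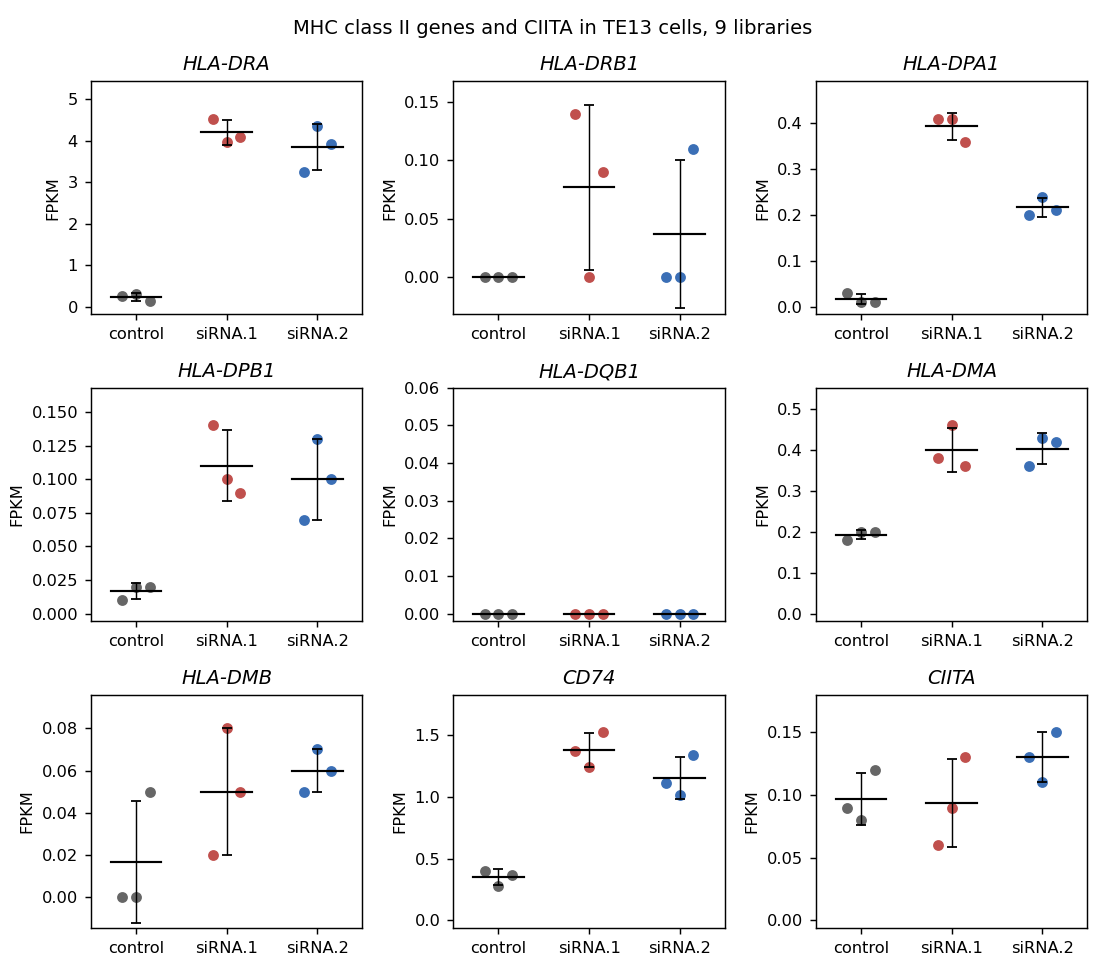
FPKM of each of the 9 members in the 9 libraries, with points for libraries, a black line for the group mean, bars for the SD (n = 3), and a separate linear y axis in each panel. HLA-DRA, HLA-DPA1, HLA-DPB1, HLA-DMA and CD74 have no overlap between control and knockdown libraries, HLA-DQB1 is at 0 in every library, and the CIITA points of the 3 groups overlap.

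HLA-DRA (ENSG00000204287, chr6:32439878-32445046, plus strand) encodes the alpha chain shared by all HLA-DR molecules. It had 5, 6 and 3 counts in control, against 100, 76 and 89 after siRNA.1 and 80, 104 and 110 after siRNA.2. The lowest knockdown library thus held more than 10 times the counts of the highest control library. In FPKM the mean was 0.233 ± 0.0929 (SD, n = 3) in control, 4.20 ± 0.293 with siRNA.1 and 3.84 ± 0.554 with siRNA.2. The log2 fold change fitted by edgeR (with SE, its standard error) was 4.13 under siRNA.1 (SE 0.34) and 4.01 with siRNA.2 (SE 0.34). Summed over the libraries, the level was 17.9 times control with siRNA.1 (10.5 to 33.2) and 16.5 times with siRNA.2 (9.69 to 30.6).

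HLA-DRB1 (ENSG00000196126, chr6:32578769-32589848, minus strand) encodes the main polymorphic beta chain that pairs with HLA-DRA. It had 0 counts in all 3 control libraries, 3, 0 and 2 with siRNA.1, and 0, 0 and 3 with siRNA.2. Counts of this partner chain of HLA-DRA were therefore at the limit of detection in every group. Over all libraries it had 8 counts against 573 for HLA-DRA, at a like exonic length (1229 and 1244 bases). Whether reads of this polymorphic gene were lost in mapping was not tested. Against the 3 counts over a group that a count of 0 still allows, the 5 summed counts of siRNA.1 came to 1.58-fold. That value leaves out the counting error of the 5 counts. The fit without a filter gave a 95% interval of -0.65 to 8.39 on the log2 scale, which includes 0. No fold can be given for siRNA.2, where replicate 3 held every count of HLA-DRB1. Reads of HLA-DRB1 can be split with near-identical DRB copies, and HLA-DRB5, another beta chain gene, had 1, 0 and 1 counts with siRNA.1 and 0 in the other libraries.

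HLA-DPA1 (ENSG00000231389, chr6:33064569-33080775, minus strand), the alpha chain of HLA-DP, was measured from few control counts. It had 3, 1 and 1 counts in control, 42, 36 and 36 with siRNA.1, and 23, 27 and 27 with siRNA.2. The groups formed 3 separate ranges, with siRNA.1 on top. The mean FPKM was 0.0167 ± 0.0115 (SD, n = 3) in control, 0.393 ± 0.0289 with siRNA.1 and 0.217 ± 0.0208 with siRNA.2. On the log2 scale the difference from control was 4.34 with siRNA.1 (SE 0.58) and 3.51 with siRNA.2 (SE 0.61). Control replicate 1 held 3 of its 5 control counts, and without that library the values were 5.06 and 4.23. With other libraries left out they went down to 4.03 and 3.20, and without control replicate 2 HLA-DPA1 was below HLA-DRA with siRNA.1, at 4.12 against 4.37. By summed counts HLA-DPA1 was at 21.6 times control with siRNA.1 (8.99 to 67.8) and at 12.1 times with siRNA.2 (4.97 to 38.4), intervals that overlap those of HLA-DRA.

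HLA-DPB1 (ENSG00000223865, chr6:33075990-33089696, plus strand) encodes the beta chain of HLA-DP. Its counts were 1, 2 and 2 in control, 13, 8 and 8 with siRNA.1, and 7, 13 and 12 with siRNA.2. All knockdown libraries were above all control libraries, at levels of 0.07 to 0.14 FPKM. Summed counts were 5.49 times control with siRNA.1 (2.10 to 18.2) and 5.04 times with siRNA.2 (1.95 to 16.6). HLA-DPA1 and HLA-DPB1 lie head to head and their annotated spans overlap by 4786 bases on opposite strands. Strandedness of the library is not given in the sources used here, so reads from the overlap cannot be assigned to one of them with certainty.

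HLA-DQB1 (ENSG00000179344, chr6:32659467-32668383, minus strand), the beta chain of HLA-DQ, had 0 counts in all 9 libraries. The DQ alpha chain gene HLA-DQA1 had 4 counts in siRNA.1 replicate 3 and none elsewhere. HLA-DQA1 and HLA-DQB1 thus had no counts in control cells or with siRNA.2, and whether their reads were lost in mapping was not tested. Of the 3 classical pairs, DR and DP alone had counts for an alpha and a beta chain in knockdown cells.

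HLA-DM is the peptide editor. HLA-DMA (ENSG00000204257, chr6:32948613-32969094, minus strand), its alpha chain, had 7, 8 and 9 counts in control, 17, 18 and 16 with siRNA.1, and 18, 21 and 24 with siRNA.2. Knockdown and control libraries did not overlap. The mean FPKM was 0.193 ± 0.0115 (SD, n = 3) in control, 0.400 ± 0.0529 with siRNA.1 and 0.403 ± 0.0379 with siRNA.2. On the log2 scale the difference from control was 1.01 with siRNA.1 (SE 0.53) and 1.04 with siRNA.2 (SE 0.52). The span of HLA-DMA shares 501 bases with BRD2, an abundant chromatin reader gene on the other strand with 28492 counts in all libraries, and reads there cannot be assigned with certainty.

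HLA-DMB (ENSG00000242574, chr6:32934629-32941028, minus strand), the beta chain of HLA-DM, had 0, 0 and 4 counts in control, 2, 6 and 4 with siRNA.1, and 5, 6 and 6 with siRNA.2. The control range overlapped that of siRNA.1, while siRNA.2 was above it. Summed counts were 2.84 times control with siRNA.1 (0.861 to 12.1), an interval that includes 1, and 3.34 times with siRNA.2 (1.09 to 13.7). All 4 control counts came from replicate 3, and without that library the control group was at 0.

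CD74 (ENSG00000019582, chr5:150400041-150412969, minus strand), the invariant chain, lies outside the MHC region and had the highest mean FPKM of the members in control cells, in a range that overlapped that of HLA-DRA. Its counts were 38, 27 and 41 in control, 149, 117 and 162 with siRNA.1, and 135, 119 and 185 with siRNA.2. The lowest knockdown library was well above the highest control library. The mean FPKM was 0.350 ± 0.0624 (SD, n = 3) in control, 1.38 ± 0.140 with siRNA.1 and 1.15 ± 0.169 with siRNA.2. On the log2 scale the difference from control was 1.93 with siRNA.1 (SE 0.20) and 1.69 with siRNA.2 (SE 0.20), and the ratio of summed counts was 3.82 (3.08 to 4.78) and 3.26 (2.63 to 4.07). Its span shares 268 bases with TCOF1, a ribosome biogenesis gene on the other strand with 34150 counts in all libraries.

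The FPKM of HLA-DRA rose relative to that of CD74. The ratio of their FPKM was between 0.351 and 1.11 in the control libraries, between 2.70 and 3.31 with siRNA.1, and between 2.93 and 4.31 with siRNA.2. The alpha chain was therefore measured above its invariant chain per kilobase in all 6 knockdown libraries and in 1 control library. By counts CD74 was above HLA-DRA in every library, and its exonic length was 6122 bases against 1244. The order of members by FPKM thus depends on these lengths, while the rise of the ratio does not. The neighbours next in order, HLA-DMA and HLA-DPA1, stood at 0.400 and 0.393 FPKM with siRNA.1, closer than their SDs, and at 0.403 and 0.217 FPKM with siRNA.2. HLA-DPB1, CIITA, HLA-DMB and HLA-DRB1 followed at a mean of 0.13 FPKM or less in both knockdown groups, with overlapping libraries.

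CIITA (ENSG00000179583, chr16:10866222-10943021, plus strand), the transactivator, had 28, 27 and 43 counts in control, 23, 30 and 46 with siRNA.1, and 52, 42 and 71 with siRNA.2. The siRNA.1 libraries covered the control range, and the siRNA.2 libraries overlapped it in FPKM, where control reached 0.12 and siRNA.2 began at 0.11. The mean FPKM was 0.0967 ± 0.0208 (SD, n = 3), 0.0933 ± 0.0351 and 0.130 ± 0.0200. On the log2 scale the difference from control was -0.05 with siRNA.1 (SE 0.31), whose sign changed when single libraries were left out, and 0.40 with siRNA.2 (SE 0.30). By summed counts CIITA stood at 0.957 times control with siRNA.1 (0.716 to 1.28) and 1.32 times with siRNA.2 (1.03 to 1.72). The FPKM ratio of HLA-DRA to CIITA was between 1.08 and 3.88 in control libraries and between 25.0 and 75.5 in knockdown libraries. FPKM divides by an exonic length of 20763 bases for CIITA and 1244 for HLA-DRA, which sets the size of this ratio but not its rise. Summed counts of CIITA and HLA-DRA were 98 and 14 in control, 99 and 265 with siRNA.1, and 165 and 294 with siRNA.2. CIITA overlaps DEXI on the other strand over 13578 bases, and DEXI had 458 counts in all libraries against 362 for CIITA.

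**Figure D2:**
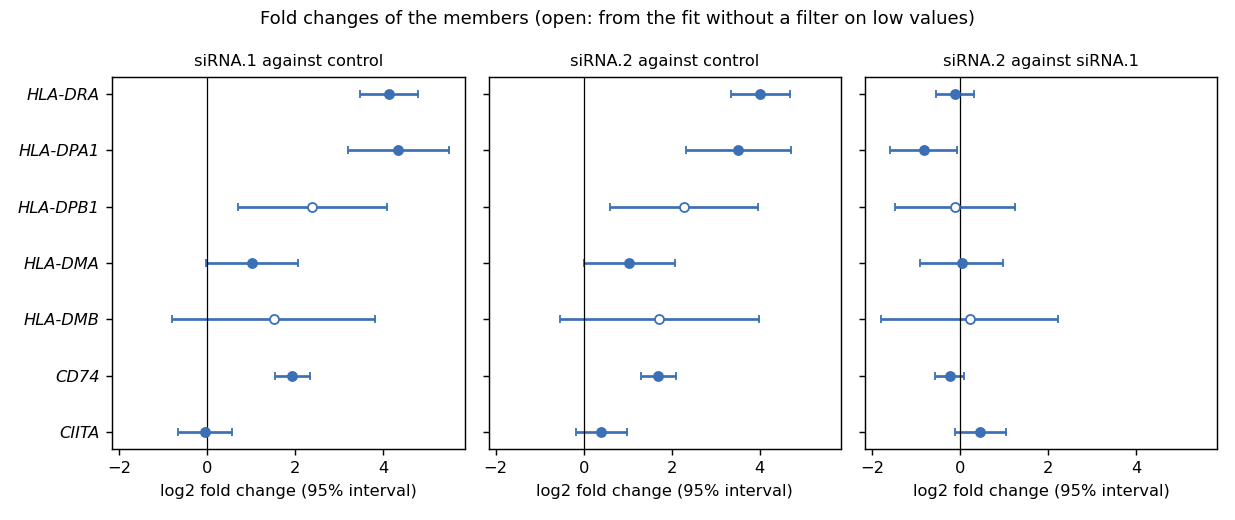
Fitted log2 fold changes of 7 members in the 3 contrasts, with bars for the 95% interval and open symbols for genes under the filter on low values. HLA-DRA, HLA-DPA1 and CD74 lie far to the right in both contrasts with control, CIITA lies near 0, and in the contrast of the siRNAs HLA-DPA1 alone has an interval that leaves out 0.

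The number of members past the threshold is given for description. Of the 9 members, 5 passed the filter of a mean of 0.1 FPKM over the 9 libraries (HLA-DRA, HLA-DPA1, HLA-DMA, CD74 and CIITA). HLA-DPA1 passed through its knockdown libraries alone. CIITA, at a mean of 0.0967 FPKM in control and 0.0933 FPKM with siRNA.1, passed through its siRNA.2 libraries. HLA-DRA, HLA-DPA1 and CD74 had an adjusted p under 0.05 and were higher with each siRNA, 3 of 5, where 15% of all 21395 genes tested were called higher after siRNA.1 and 15.8% after siRNA.2. All 3 libraries lay above all 3 control libraries for 5 of the 9 members with siRNA.1, where 13.2% of genes did so, and for 6 of 9 with siRNA.2, where 14.4% did. Both contrasts use the same 3 control libraries.

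No tested member differed between the siRNAs past the adjusted threshold, and HLA-DPA1 came nearest. In the direct contrast of siRNA.2 with siRNA.1, 0 of the 5 tested members passed edgeR's adjusted threshold, where 12.2% of all genes did, and 1 had an unadjusted p under 0.05. DESeq2 called 0, and limma called 1 with a pseudocount of 0.1 or 1 and 0 with 0.01. The gene was HLA-DPA1 in each case. All siRNA.2 libraries of HLA-DPA1 were below all siRNA.1 libraries, as held for 8.54% of genes, and its log2 difference was -0.83 (SE 0.39, 95% interval -1.59 to -0.06, adjusted p = 0.179, range over the alternatives 0.0195 to 0.342). The difference of HLA-DRA was -0.11 (interval -0.54 to 0.31, adjusted p = 0.842), that of CD74 was -0.23 (-0.57 to 0.10, adjusted p = 0.461), and that of HLA-DMA was 0.03 (-0.91 to 0.97, adjusted p = 0.988). For CIITA it was 0.46 (-0.12 to 1.04, adjusted p = 0.395). These intervals leave room for moderate differences in either direction.

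The rest of the class II family added little. Of 6 other class II genes, HLA-DOB, the beta chain of the HLA-DM modulator HLA-DO, was alone in passing the filter, and its log2 fold changes of 1.64 (SE 1.13, adjusted p = 0.300) and 1.17 (SE 1.14, adjusted p = 0.499) did not pass. The control mean of HLA-DOB, 0.053 FPKM, was under the filter, so it was tested through its knockdown libraries alone. HLA-DQB2 had no count, and HLA-DQA2, a little expressed DQ alpha chain gene, had 5 counts, all in knockdown libraries. None of 7 class II pseudogenes and antisense transcripts had enough counts to be tested.

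The DNA-binding factors of the class II promoter were present in control cells. RFX5 (22.5 ± 1.09 FPKM in control, SD, n = 3), RFXANK (19.9 ± 0.130 FPKM) and RFXAP (3.25 ± 0.501 FPKM), the subunits of the RFX complex, did not pass the test with either siRNA, with log2 fold changes between -0.11 and 0.32. Of the 8 factors, 1 was called with siRNA.1 and 2 with siRNA.2, where NFYB, an NF-Y subunit, rose by 0.22 (adjusted p = 0.00235, lost without control replicate 3). Of all genes tested, 30.3% and 30.9% were called, so 1 and 2 of 8 are no more than the background. CREB1, a factor that binds the X2 element, fell with both, by 0.31 with siRNA.1 (SE 0.07, adjusted p = 2.11e-05) and by 0.61 with siRNA.2 (SE 0.07, adjusted p = 9.62e-19) on the log2 scale. The 8 factors had a median of 0.03 and 0.04 on that scale, where all genes tested had 0.00 with both.

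Among 5 coactivators and acetyltransferases that work with CIITA, 2 fell with siRNA.1, and 1 rose and 3 fell with siRNA.2, where 15.2% and 15.1% of all genes tested were called lower. KAT2B, the acetyltransferase PCAF, fell by 0.63 (SE 0.17, adjusted p = 0.00104) and by 0.95 (SE 0.17, adjusted p = 1.56e-07). CREB1 and KAT2B thus fell in the cells in which HLA-DRA was higher, and their calls held with each library left out in turn.

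The interferon gamma route that induces CIITA showed no common direction. IFNG, the gene of interferon gamma itself, had 0 counts in all 9 libraries. Of the other 9 genes of the route, 2 rose and 3 fell with each siRNA, with median log2 fold changes of -0.17 and -0.12. Of all genes tested, 15% and 15.8% were called higher and 15.2% and 15.1% lower. IRF1, a transcription factor that acts at the interferon-responsive CIITA promoter, fell by 0.31 (SE 0.06, adjusted p = 3.62e-06) and by 0.24 (SE 0.06, adjusted p = 0.000547). The calls of IRF1 held with each library left out, while those of IFNGR1, IFNGR2, IRF2, SOCS1 and JAK1 were lost without 1 library or another.

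Genes of endosomal antigen processing moved in both directions. The list holds proteases that trim CD74 and antigen, and with them the ceramidase ASAH1, the tetraspanin CD63 and the thiol reductase IFI30. Of its 11 genes, 3 rose and 4 fell with siRNA.1, and 3 rose and 6 fell with siRNA.2. Of all genes tested, 15% and 15.8% were called higher and 15.2% and 15.1% lower. CTSL, a cathepsin that trims the invariant chain, rose by 0.52 (SE 0.05, adjusted p = 8.26e-20) and 0.58 (SE 0.05, adjusted p = 4.75e-25), and CTSS, the protease that removes most of the invariant chain in antigen-presenting cells, rose by 0.36 (SE 0.05, adjusted p = 1.85e-13) with siRNA.1 and by 0.12 (SE 0.05, adjusted p = 0.0426) with siRNA.2. The latter call was lost when any of 6 libraries was left out. SPPL2A, the intramembrane protease that clears the last fragment of CD74, fell by 0.79 (SE 0.06, adjusted p = 7.79e-42) and by 0.63 (SE 0.06, adjusted p = 3.16e-28). Between the siRNAs, 6 of the 11 were lower under siRNA.2, CTSS and CTSB among them, where 12.2% of all genes were called in either direction.

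Genes that act on finished class II molecules or on T cells were measured next. CD83, which protects class II molecules from ubiquitin-driven removal, rose by 0.53 (SE 0.10, adjusted p = 4.67e-07) and 0.67 (SE 0.10, adjusted p = 4.01e-11), 1 of 3 turnover genes. CD44, the signalling partner of surface CD74, rose by 0.15 (SE 0.04, adjusted p = 0.000289) and 0.10 (SE 0.04, adjusted p = 0.0227), 1 of 4 tested genes of that list, and the second call was lost without single libraries. MIF, the ligand of CD74, had log2 fold changes of -0.03 and 0.01 and did not pass. Of 7 costimulatory and adhesion genes, 1 rose with each siRNA, ICAM1 with siRNA.1 and CD70 with siRNA.2, and neither call held with each library left out. That count is near the background of 15% and 15.8% called higher. CD86, the main costimulatory ligand, had 2, 5 and 1 counts in control, 12, 12 and 8 with siRNA.1, and 16, 12 and 7 with siRNA.2, and did not pass (adjusted p = 0.0635 and 0.0858). The control mean of CD86, 0.05 FPKM, was under the filter, so it was tested through its knockdown libraries alone.

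**Figure D3:**
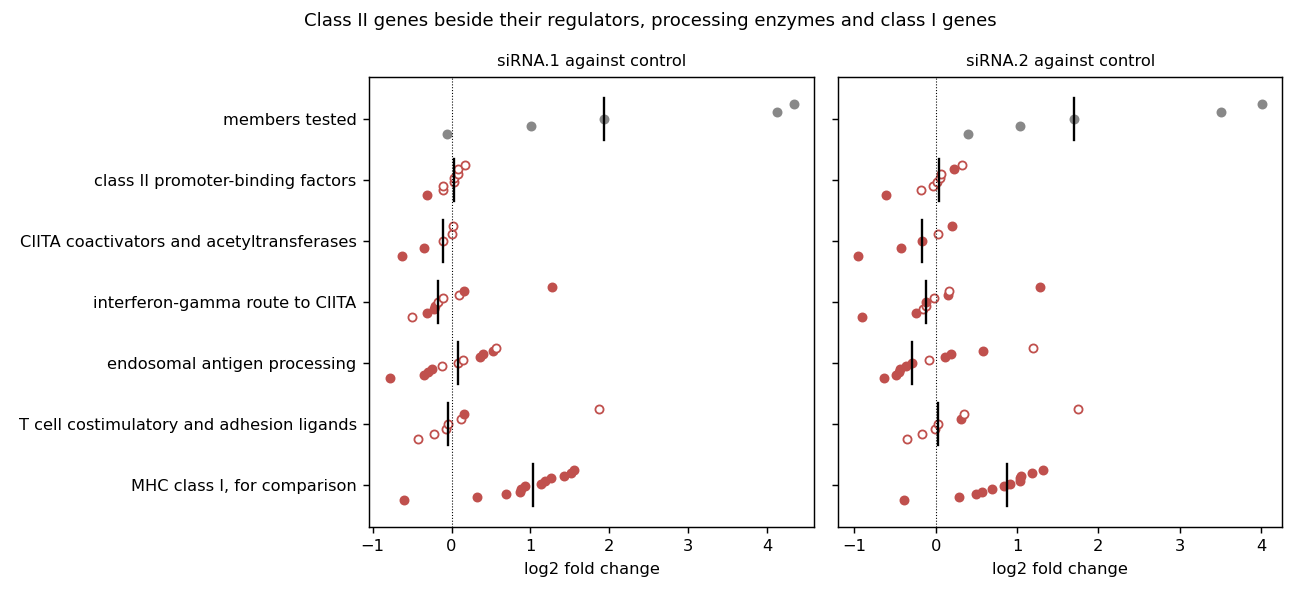
Log2 fold changes of the 5 tested members (grey) and of the tested genes of 6 lists, for each siRNA against control. Each point is 1 gene, filled red where the adjusted p was under 0.05 and open where it was not, and black bars mark medians. The promoter-binding factors lie around 0 with medians of 0.03 and 0.04, while the class I genes lie around 1 with medians of 1.03 and 0.87.

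MHC class I genes, which present cytosolic peptides to CD8+ T cells, rose together from a high base. Of 12 genes, 11 rose and 1 fell with each siRNA, with median log2 fold changes of 1.03 and 0.87. Among all genes tested, 15% and 15.8% were called higher. HLA-B, a classical heavy chain, rose from 61.2 ± 2.26 FPKM in control (SD, n = 3) to 182 ± 7.89 after siRNA.1 and 154 ± 4.03 after siRNA.2. NLRC5, the class I counterpart of CIITA, rose by 0.93 (SE 0.08, adjusted p = 3.58e-27) and 0.58 (SE 0.08, adjusted p = 1.14e-10), whereas CIITA had -0.05 and 0.40. Class I genes had moderate fold changes on levels already above 1 FPKM in control, and HLA-DRA had a larger one from a level under 1 FPKM. Between the siRNAs, 7 of 12 class I genes were lower with siRNA.2, HLA-C by 0.48 on the log2 scale among them, and 1 was higher, with a median of -0.22. Of these 8 class I calls, 3 held under every alternative. The members had no call in that contrast, where 12.2% of all genes tested were called. HLA-DRA had -0.11 (SE 0.22), CD74 -0.23 (SE 0.17) and HLA-DPA1 -0.83 (SE 0.39), while HLA-DMA had 0.03 (SE 0.48) and CIITA 0.46 (SE 0.30). With SEs of this size, a difference like the class I median need not be called, and a difference between the classes was not tested.

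Genes between HLA-DRA and HLA-DPB1 on chromosome 6 were compared with the class II chains at its ends. The stretch of 649.8 kb (chr6:32439878-33089696) holds 34 genes of the table, of which 27 are no members and 9 of these were tested. The test called 5 of these 9 with siRNA.1 and 6 with siRNA.2, each of them higher, where 15% and 15.8% of all genes tested were called higher. Those that rose with both were TAP1, TAP2, PSMB8, PSMB9 and PSMB8-AS1. TAP1 and TAP2 pump peptides for class I, PSMB8 and PSMB9 are subunits of the immunoproteasome, and PSMB8-AS1 is an antisense transcript. The span of PSMB8-AS1 overlaps PSMB8 and TAP1 on the other strand and PSMB9 on its own strand. Reads of these overlaps cannot be assigned with certainty. TAP1 rose by 1.13 and 1.18 (SE 0.06 each, adjusted p = 2.82e-84 and 4.12e-93). BRD2, next to HLA-DMA, had 0.08 and 0.12, the latter with adjusted p = 0.0387, a call lost without single libraries, and the call of TAP2 was lost without control replicate 2. The fitted values of HLA-DRA and HLA-DPA1, at opposite ends of the stretch, were each above 3.5 on the log2 scale and those of the tested genes between them were below 2.

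**Figure D4:**
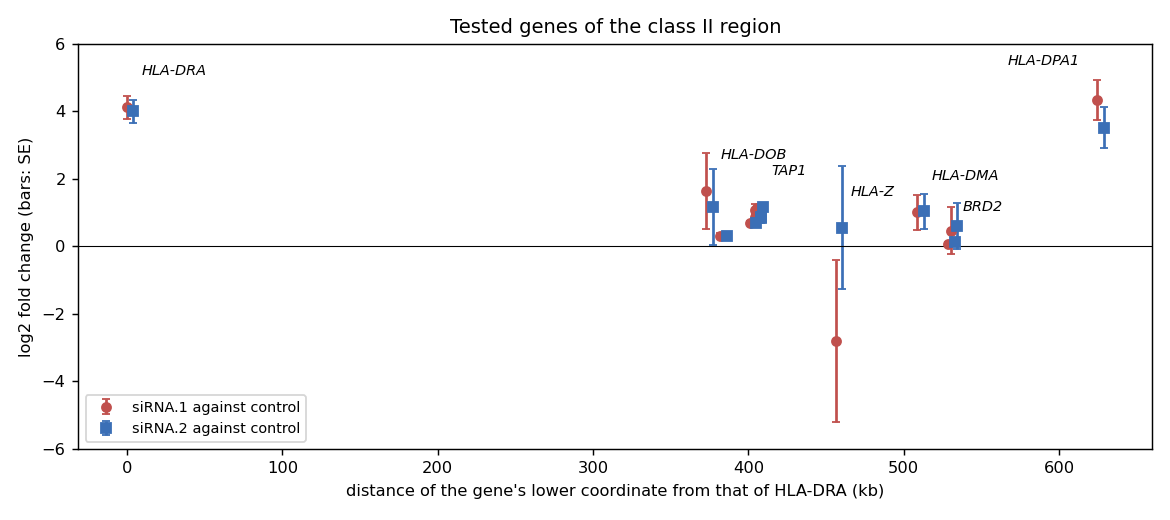
Log2 fold change against control of the 12 tested genes between HLA-DRA and HLA-DPB1 by distance of each gene's lower coordinate from that of HLA-DRA in kb, circles for siRNA.1, squares for siRNA.2 and bars for the SE. HLA-DRA at 0 kb and HLA-DPA1 at 625 kb lie highest, and the TAP and PSMB genes form a cluster left of HLA-Z with values between 0.29 and 1.18. The pseudogene HLA-Z has a wide bar.

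Markers of blood and antigen-presenting cells were measured as well, since those cells make class II molecules. Their 22 genes summed to between 18.5 and 20.6 FPKM in control, 24.3 and 26.0 FPKM with siRNA.1, and 25.9 and 28.6 FPKM with siRNA.2. CORO1A and LCP1 made up most of these sums. CORO1A had means of 7.41, 8.53 and 8.28 FPKM in control, siRNA.1 and siRNA.2, and LCP1 had 9.97, 8.96 and 10.8 FPKM. The 7 monocyte or macrophage markers summed to between 0.99 and 1.71 FPKM, 5.91 and 6.14 FPKM, and 6.07 and 6.95 FPKM, so their summed level was higher alongside the class II genes. Of these 7, 5 rose with each siRNA, where 15% and 15.8% of all genes tested were called higher. CD14, TYROBP and AIF1 had control means under 0.1 FPKM and passed the filter through their knockdown libraries alone. LYZ, the lysozyme gene, had 13, 2 and 12 counts in control, 80, 70 and 94 with siRNA.1, and 107, 92 and 129 with siRNA.2 (log2 fold change 3.08 and 3.24, adjusted p = 7.76e-23 and 3.12e-26). With each library left out in turn, the calls of LYZ, FCER1G and CSF1R held with siRNA.1 and those of LYZ and FCER1G with siRNA.2.

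Among 4 pan-leukocyte markers PTPRC, the gene of CD45, rose by 2.15 and 2.12 (adjusted p = 0.000256 and 0.000265) and CD53, a leukocyte tetraspanin, rose by 1.89 and 1.88 (adjusted p = 0.00213 and 0.00188), while CORO1A did not pass and LCP1 fell with siRNA.1 in a call lost without single libraries. PTPRC had 4, 7 and 4 counts in control and 18 to 35 in the knockdown libraries. Its control mean of 0.033 FPKM was under the filter, so PTPRC was tested through its knockdown libraries alone and its values are a description. The defining markers MS4A1 of B cells and CLEC9A, XCR1 and CLEC10A of dendritic cells had 0 counts in all 9 libraries. The 5 B cell markers summed to between 0.10 and 0.38 FPKM in control, 0.39 and 0.42 FPKM with siRNA.1, and 0.19 and 0.48 FPKM with siRNA.2. PAX5, a B cell transcription factor, had adjusted p = 0.747 and 0.131, and its control mean of 0.09 FPKM was under the filter. The 6 dendritic cell markers summed to between 0.13 and 0.17, 0.28 and 0.37, and 0.22 and 0.37 FPKM, and 1 was tested, ITGAX, which rose with siRNA.1 by 1.26 on the log2 scale (adjusted p = 0.00293). T cell markers stayed at 0.21 FPKM or less in sum, and 0 of 3 could be tested. The part of other cells or of leukocyte genes in the class II result was not tested.

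**Figure D5:**
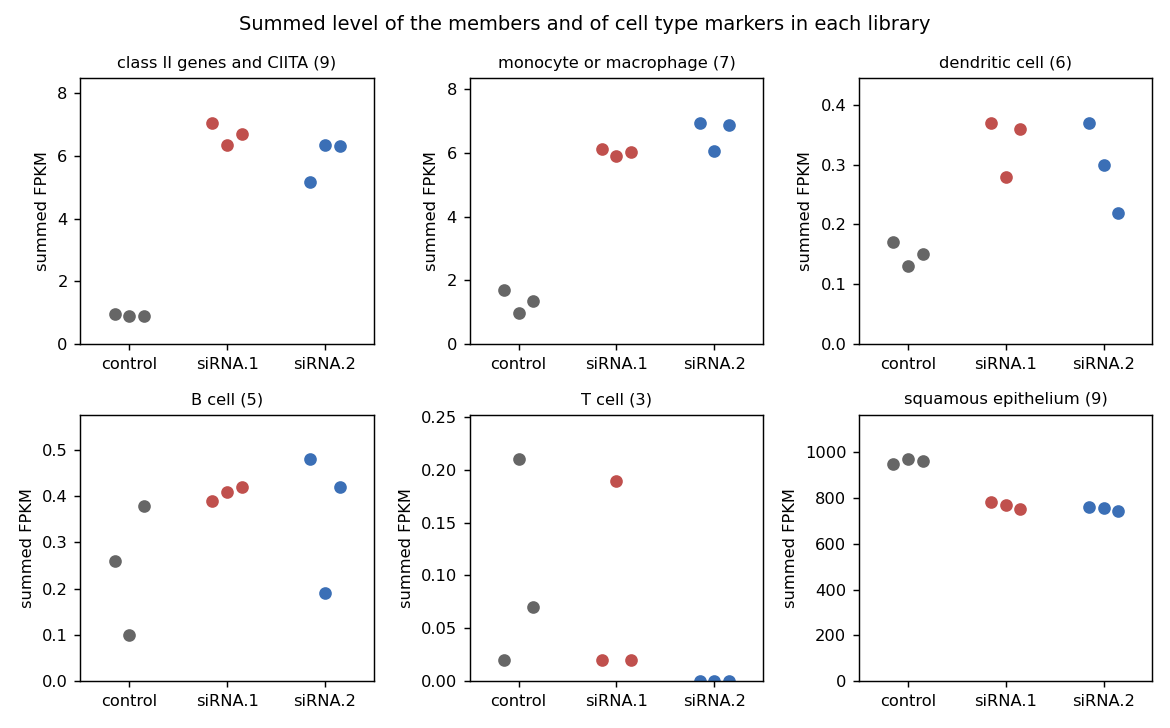
Summed FPKM in each library of the 9 members and of the marker lists, with the number of genes in each list in brackets and every y axis starting at 0. The members and the monocyte or macrophage markers are higher in all 6 knockdown libraries than in the 3 control libraries, while the sum of the squamous epithelium markers, of which 3 rose and 5 fell with each siRNA, is lower, at 744 to 783 against 950 to 970.

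Genes with the most similar profile were sought for members with a mean of at least 20 counts, by the root mean square difference of centred log2 CPM over the 9 libraries among 14330 genes. Nearest to HLA-DRA were RSAD2 (0.297), an interferon-induced antiviral enzyme, CXCL10 (0.301), an interferon-induced chemokine, and PLEK (0.436), a leukocyte protein kinase C substrate. Nearest to HLA-DPA1 were RSAD2 (0.350), LPL (0.396), lipoprotein lipase, and IFI6 (0.419), an interferon-induced mitochondrial protein. HLA-DPA1 stood at 0.458 from HLA-DRA, rank 5. Nearest to CD74 were LAMP3 (0.146), a lysosomal membrane protein, H2AW (0.150), a histone gene, and S100P (0.169), a calcium-binding protein. Nearest to CIITA were LYRM4-AS1 (0.122), LINC01012 (0.129) and PSTK (0.170), so no neighbour was shared with HLA-DRA, HLA-DPA1 or CD74 among the first 3.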

How the data were processed

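The 9 TE13 libraries were grouped by their GEO labels. The authors aligned poly(A)+ reads to GRCh38 using STAR, and gene counts came from featureCounts, as stated in their methods. Versions, annotation release and strandedness are not given in the sources used here. The authors deposited raw counts per gene, with no normalization, and FPKM, which could be recomputed from the counts, exonic length and library total. Annotation columns were not used.

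Counts were tested with edgeR 4.0.16 (TMM, quasi-likelihood, R 4.3.3) in a single fit of the 3 groups over the 21395 genes whose mean FPKM reached 0.1, and p-values were adjusted over all of them by Benjamini-Hochberg with a threshold of 0.05. Members under the filter (HLA-DRB1, HLA-DPB1, HLA-DQB1, HLA-DMB) are given from counts or from a fit without a filter. limma 3.58.1 on log2(FPKM + pseudocount) and DESeq2 1.42.0 were alternatives. Scripts were tested on simulated data. Named genes are the members, up to 4 genes of each list by smallest adjusted p, up to 5 of the region, those a sentence turns on, and the 3 nearest profiles. The members and lists were chosen with earlier results of these data known. Intervals cover 95%. Some genes of these lists enter the counts and medians and are not reported here by name.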

Additional observations from a re-analysis of the deposited data

How the results depend on the processing

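Raising the filter to a mean of 1 FPKM left HLA-DRA as the 1 member tested and the 1 called with siRNA.1 and with siRNA.2, in place of 3, because fewer genes were tested. Each siRNA had 4 members called by limma at all 3 pseudocounts, with HLA-DMA added, and 4 by edgeR without a filter or with 10 counts in 3 libraries, with HLA-DPB1 added. Between the siRNAs, limma called 607 genes with a pseudocount of 0.1, 834 with 1 and 614 with 0.01, where edgeR called 2603, and 34.3%, 35.4% and 34.4% of them were higher with siRNA.2, against 50.2% in edgeR; the cause was not tested. limma called 1 member in that contrast with a pseudocount of 0.1 or 1, HLA-DPA1. With each library left out in turn, the genes called ranged from 5615 to 6502 for siRNA.1, from 5692 to 6713 for siRNA.2 and from 1908 to 2696 between the siRNAs, and the members called stayed at 3, 3 and 0. Same-numbered libraries did not deviate together (correlations between -0.0336 and 0.0171), and with the replicate number as a block the calls were 6215, 6359 and 2342 genes and 3, 3 and 0 members. No called member changed sign. Fold changes of low genes shrank with the pseudocount, HLA-DRA with siRNA.1 to 3.73 at 0.1 and 2.08 at 1. The filter of 10 counts in 3 libraries, and the alternatives for genes that are no members, were added after seeing the data. Low counts limit HLA-DRB1, HLA-DQB1, HLA-DPB1 and HLA-DMB, which had fewer than 15 counts in every library.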
